A study of Mus musculus with 18 samples.

Results

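The genes described here are 40 genes of the testis and the male germ line, taken from the 49585 genes of the tables for the Aire and Fezf2 knockouts and the 21969 genes of the table for the Chd4 knockout. They were chosen by symbol from known genes of spermatogenesis, with earlier results of these data known, and each of the 40 symbols had a row in all 3 tables. By role they fell into 4 genes of spermatid chromatin, 8 of the acrosome and sperm surface, 8 of the flagellum, sperm energy metabolism and spermatid kinases, 9 of meiotic entry, recombination and synapsis, 5 of germ cell RNA binding and the intercellular bridge, and 6 of the piRNA pathway. RNA-seq had been done on sorted mouse medullary thymic epithelial cells (mTECs) in 18 libraries, 3 for each of 6 groups. These groups were mice labelled Aire KO with wild-type (WT) mice as their controls, mice labelled Fezf2 KO with separate WT controls, all C57BL/6, and Chd4 cKO mice with Chd4 controls, all C57BL/6x129P2. Both Chd4 groups carried floxed Chd4 on both alleles, and the cKO also carried Foxn1-Cre, whose promoter is active in thymic epithelium and not only in mTECs. The sources used here state neither the ages of the mice nor whether animals were pooled. The control groups are called WT for Aire, WT for Fezf2 and Chd4 control, with the letters A, B and C for their 3 libraries.

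Medullary thymic epithelium transcribes many genes that are otherwise restricted to 1 tissue and presents their products to developing T cells, which are deleted or become regulatory T cells when they bind them strongly. Aire, a transcriptional regulator, and Fezf2, a zinc finger transcription factor, each promote part of this transcription, and Chd4 is the helicase subunit of the NuRD chromatin remodelling complex. Germ cell genes are of interest because those of spermatids and sperm are first used at puberty, after tolerance to other tissues has been set. The blood-testis barrier also separates later germ cells from the immune system. In most somatic cells many meiotic and piRNA genes are kept silent by DNA methylation and by repressors that bind E2F and E-box sites in their promoters. The question the comparisons address is whether these genes were transcribed in mTECs and whether their level differed in each knockout from its own control.

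Promoters of 31 members were found in RefSeq (GRCm38.p6), and 4 are shown because these genes passed the test in the Chd4 comparison and lie in 3 of the role groups. Each line is the 250 bases before the start given in RefSeq, on the strand of the gene. For Tnp2, Ldhc and Ddx4 that start lies inside the gene coordinates used elsewhere here, so part of each window lies within the gene. By those coordinates the Ldhc gene begins at 46861203 and the Ddx4 gene at 112652475. The nearer match of Ldhc and the matches of Ddx4 thus lie within the gene. Capitals mark matches on either strand to TCCCGC (an E2F-type core), CACGTG (an E-box) and TGACG (the core of the site for CREM-type factors), and in these 4 promoters no match overlaps another. The promoter of Tnp2 (chr16:10788656-10788905, minus strand) held none of them, that of Ldhc (chr7:46861013-46861262, plus strand) held TGACG at 61 and 47 bases before the start, that of Tex14 (chr11:87404815-87405064, plus strand) held TCCCGC at 111 bases, and that of Ddx4 (chr13:112652311-112652560, minus strand) held 1 match to each, at 136, 29 and 59 bases.
Tnp2: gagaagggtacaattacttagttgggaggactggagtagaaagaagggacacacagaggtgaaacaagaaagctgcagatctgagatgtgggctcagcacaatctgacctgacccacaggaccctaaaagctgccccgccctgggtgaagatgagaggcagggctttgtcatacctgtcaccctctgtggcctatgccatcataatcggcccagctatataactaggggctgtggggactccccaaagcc
Ldhc: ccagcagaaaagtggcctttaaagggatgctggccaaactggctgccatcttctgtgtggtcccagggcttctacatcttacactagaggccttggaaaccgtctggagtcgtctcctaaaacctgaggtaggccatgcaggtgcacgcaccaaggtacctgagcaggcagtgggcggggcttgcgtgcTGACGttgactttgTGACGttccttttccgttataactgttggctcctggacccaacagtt
Ddx4: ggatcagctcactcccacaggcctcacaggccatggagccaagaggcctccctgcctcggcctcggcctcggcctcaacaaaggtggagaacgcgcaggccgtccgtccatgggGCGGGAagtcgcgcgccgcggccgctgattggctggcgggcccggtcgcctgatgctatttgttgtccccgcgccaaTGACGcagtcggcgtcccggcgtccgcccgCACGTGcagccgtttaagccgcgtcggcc
Tex14: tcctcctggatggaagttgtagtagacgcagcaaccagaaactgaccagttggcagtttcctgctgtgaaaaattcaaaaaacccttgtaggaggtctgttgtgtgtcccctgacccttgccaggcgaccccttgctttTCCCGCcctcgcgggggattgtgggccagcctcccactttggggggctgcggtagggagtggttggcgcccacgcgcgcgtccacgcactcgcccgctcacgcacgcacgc
Among the 31 promoters TCCCGC was found in 9 (29.0%), against 16.9% of 32851 RefSeq promoters of the same length. CACGTG was found in 10 (32.3%, against 6.0% of all promoters), and all 10 belonged to genes of meiosis, RNA binding, the piRNA pathway or the acrosome. TGACG was found in 5 (16.1%, against 17.8%) and TATAAA in Prm2 and Crisp2 (6.5%, against 12.4%). The ratio of observed to expected CpG was at least 0.6 in 13 of 31 members and in 34% of all promoters. It reached 0.6 in 4 of the 5 genes of RNA binding and the bridge and in 0 of the 4 genes of spermatid chromatin. These matches are letters in a window and were not tested as sites.

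Exon reads per library ranged from 3571570 to 17220157, with Chd4 cKO B the deepest, so that 3 reads, used as the detection floor, stood for 0.176 CPM in that library and for 0.431 to 0.844 CPM in the other libraries. CPM are exon read counts per 1000000 after TMM scaling of library size. The Fezf2 transcript averaged 13.6 ± 8.46 CPM in Fezf2 KO and 652 ± 82.4 CPM in WT for Fezf2, and the Chd4 transcript 27.4 ± 2.80 CPM in Chd4 cKO and 60.3 ± 5.69 CPM in Chd4 control (SD, n = 3 each). The Aire transcript averaged 3941 ± 182 CPM in the libraries labelled Aire KO and 2018 ± 255 CPM in WT for Aire. Which exons of Aire were deleted is not stated, so this transcript level cannot serve as a check of the label. The headers of the table write a conditional knockout for the 3 libraries whose labels say Fezf2 KO. Summed levels of 7 mTEC markers lay between 28276 and 48320 CPM over the 18 libraries. These markers include H2-Aa, Cd74 and Cd80, which are not confined to epithelium, so the sum does not measure epithelial genes alone. The summed level of 4 Y-linked genes was 189 and 214 CPM in Aire KO B and C but 0.476 CPM in Aire KO A, and 184 and 196 CPM in WT for Aire A and C but 12.3 CPM in WT for Aire B. It was 158 CPM in Chd4 control A and at most 1.65 CPM in the 11 remaining libraries. The labels do not say whether the triplicates are separate animals, so p-values reflect the spread of these libraries, which may be technical, and in bulk RNA fewer cells of a type and less RNA per cell cannot be told apart.

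Most of the 40 genes were transcribed at a low level in mTECs of the control groups. Per length of exon, 11 members averaged at least 1 RPKM (CPM per kilobase of exon) over the 3 control groups, 22 lay between 0.1 and 1 RPKM and 7 lay under 0.1 RPKM. The median of the 24469 genes with a read in WT for Aire was 1.90 RPKM. The highest level was that of Tnp2, a transition protein that replaces histones in elongating spermatids, at 18.6 RPKM. Stra8, which commits germ cells to meiosis, averaged 10.1 RPKM, and Odf2, a component of the outer dense fibres of the sperm tail that somatic cells also use at the centriole, averaged 9.75 RPKM. Tex14, which keeps the bridges between sister germ cells open, averaged 4.99 RPKM, and Spo11, the enzyme that makes meiotic double strand breaks, 3.23 RPKM. Their ranges over the 3 control groups overlapped in part: Tnp2 lay between 15.2 and 25.0 RPKM, Stra8 between 9.64 and 10.9, Odf2 between 6.21 and 16.8, Tex14 between 3.84 and 5.73 and Spo11 between 2.90 and 3.54 RPKM. For 12 members, Odf2 and Spo11 among them, the Chd4 table gives another exon length (4743 against 9919 bases for Odf2, and 1755 against 3921 for Spo11), so levels of these genes rest on different gene models in the 2 kinds of table.

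**Figure D1:**
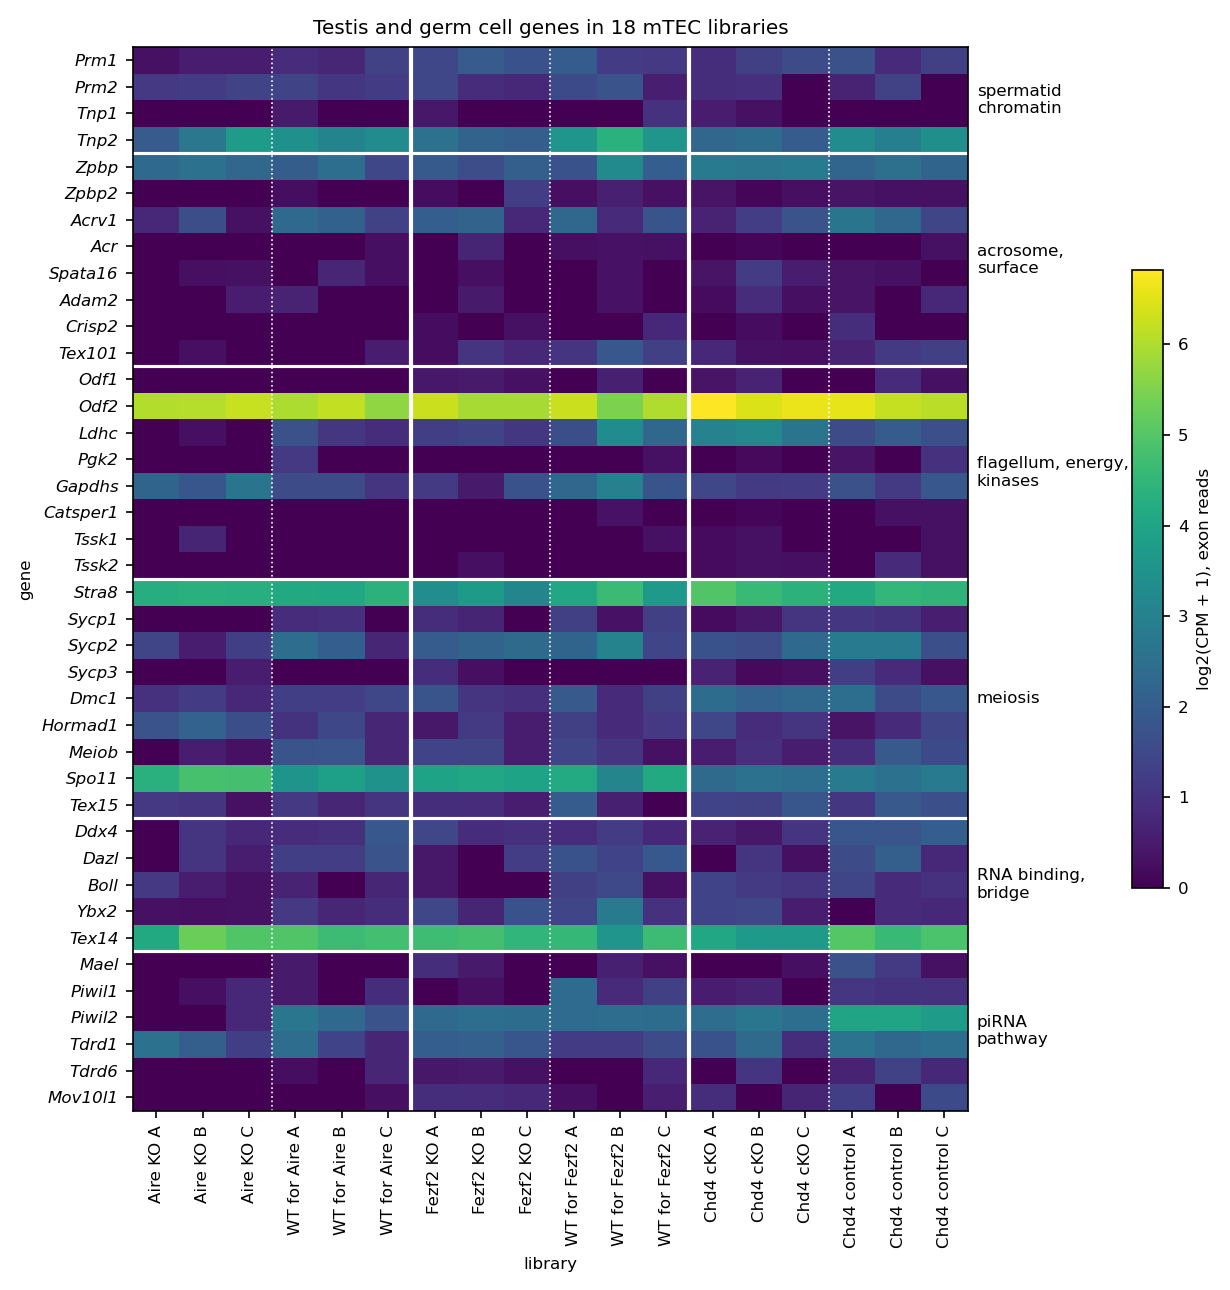
Level of each of the 40 genes (rows, by role) in each of the 18 libraries (columns, each knockout left of its control), as log2(CPM + 1) of exon reads on a colour scale from 0. Odf2 is the highest in every library, at 44.0 to 112 CPM, and Acr, Adam2, Crisp2, Odf1, Catsper1, Tssk1 and Tssk2 stay under 1 CPM.

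By role, the spermatid chromatin genes other than Tnp2 lay low over the 18 libraries. The protamine Prm1 ranged from 0.238 to 2.93 CPM with a median of 1.37 CPM, the protamine Prm2 from 0 to 2.36 CPM, and Tnp1, the other transition protein, had reads in 5 libraries and at most 0.963 CPM. Of the genes of the acrosome and sperm surface, Zpbp, a zona pellucida binding protein, was between 1.73 and 8.64 CPM and Acrv1, a protein of the acrosomal vesicle, between 0.236 and 5.35 CPM, both with a read in every library. Tex101, a surface protein of germ cells, reached 2.62 CPM, Zpbp2, the paralogue of Zpbp, 1.38 CPM and Spata16, an acrosomal protein, 1.29 CPM. Acr, the acrosomal protease, the sperm surface protein Adam2 and Crisp2, a secreted protein of the acrosome, stayed under 1 CPM in all 18 libraries. In the group of the flagellum, metabolism and kinases, the glycolytic enzyme Pgk2 reached 1.21 CPM, and Odf1 of the outer dense fibres, the calcium channel subunit Catsper1 and the kinases Tssk1 and Tssk2 stayed under 1 CPM.

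Among the meiotic genes, Sycp2 of the chromosome axis ranged from 0.429 to 7.33 CPM, the recombinase Dmc1 from 0.709 to 4.50 CPM and Hormad1, also of the axis, from 0.281 to 3.43 CPM, with reads in every library. Meiob, a single-strand DNA binding protein of recombination, and Tex15, which is needed for break repair and transposon silencing, had reads in 17 libraries and reached 2.72 CPM and 2.93 CPM. The synaptonemal complex proteins Sycp1 and Sycp3 reached 1.47 CPM and 1.41 CPM, in 13 and 9 libraries. The RNA-binding proteins Dazl and Boll reached 3.22 CPM and 1.83 CPM, and Ybx2, which stores mRNA in germ cells, 6.02 CPM in WT for Fezf2 B. In the piRNA pathway, Tdrd1, a scaffold for PIWI proteins, lay between 0.648 and 5.06 CPM in all 18 libraries. Piwil1 reached 4.19 CPM, Mael 2.25 CPM, the helicase Mov10l1 1.91 CPM and the scaffold Tdrd6 1.48 CPM, with reads in 13, 9, 10 and 10 libraries.

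The 40 genes held 16758 exon reads over the 18 libraries. Odf2 alone gave 7223 of them and Tex14 2071, while Catsper1 gave 4. Several members overlap another gene in the annotation, among them Prm1, Tnp1, Zpbp, Sycp3, Tssk1 and Gapdhs. Overlap was taken on whole gene spans and not on exons, and whether the counting used strand is not stated. Whether their counts hold reads of the overlapping gene is therefore not known. Gapdhs, the spermatid form of a glycolytic enzyme, has related copies in the genome, and its count is uncertain for that reason too.

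In the libraries labelled Aire KO, Spo11 rose and Piwil2, a PIWI protein that takes part in making piRNAs in germ cells before and during meiosis, fell to near 0, while the other 7 members tested did not pass. Spo11 (chromosome 2, 172977700 to 172993576) had 19.3, 27.6 and 27.0 CPM in Aire KO and 10.5, 13.5 and 10.1 CPM in WT for Aire, means of 24.6 ± 4.64 and 11.4 ± 1.82 CPM (SD, n = 3 each). All 3 libraries labelled Aire KO lay above all 3 of WT for Aire. The log2 fold change was 1.12 (SE 0.24, edgeR quasi-likelihood test with Benjamini-Hochberg adjusted p = 0.00671). Piwil2 (chromosome 14, 70372477 to 70429383) had 0, 0 and 3 reads in Aire KO and 27, 18 and 11 reads in WT for Aire. The groups did not overlap, and the level was 17.4-fold lower in Aire KO, with a 95% interval of 5.66 to 86.9 that covers counting error only (edgeR log2 fold change -3.95, SE 0.89, adjusted p = 0.00835). These were 1 higher and 1 lower gene among the 9 members that passed the filter on low counts, where 5.73% of all 14949 genes tested were higher and 9.37% lower. The 9 had a median log2 fold change of 0.15, against 0.00 over all genes tested.

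The other 7 tested members did not pass in this comparison. Stra8 had 18.1, 19 and 18.7 CPM in Aire KO and 16.8, 15.9 and 20.1 CPM in WT for Aire, with a log2 fold change of 0.08 and a 95% interval of -0.34 to 0.50. Odf2 had 65.2, 66.4 and 75.7 CPM in Aire KO and 62.8, 72.5 and 51.2 CPM in WT for Aire, with an interval of -0.14 to 0.45. For Tex14, which had 16.7, 37.9 and 30.5 CPM in Aire KO and 30.7, 24.5 and 26.3 CPM in WT for Aire, it was -0.44 to 0.57. Tnp2 spread widely in Aire KO, at 2.86, 5.57 and 12.8 CPM, against 9.69, 7.40 and 8.85 CPM in WT for Aire, and its interval of -1.19 to 0.61 leaves changes in either direction possible. Gapdhs had 3.57, 2.57 and 5.20 CPM in Aire KO and 2.02, 2.02 and 1.08 CPM in WT for Aire. Its groups did not overlap, but the log2 fold change of 1.13 (SE 0.54) did not pass (edgeR, Benjamini-Hochberg adjusted p = 0.190).

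The 31 members under the filter held 0 to 35 reads over the 3 libraries of Aire KO, with a median of 2.0, and 0 to 42 reads over WT for Aire, with a median of 6.0. Scaled to library size, 5 of them were higher in Aire KO, 22 were higher in WT for Aire and 4 were equal, a tally with no test. The same tally was not made over all genes under the filter, so the tilt is not shown to be particular to the members. Over all genes, 18771 to 19260 had a read in Aire KO and 20997 to 21890 in WT for Aire. Ldhc, the lactate dehydrogenase of sperm, had 1 read in Aire KO and 20 in WT for Aire, 18.6-fold lower, between 2.98 and 773 by counting error. Meiob had 3 and 26 reads in these groups, 8.08-fold lower, between 2.48 and 41.7. Ddx4 had 0, 5 and 3 reads in Aire KO and 4, 4 and 12 in WT for Aire. Without the filter the adjusted p of edgeR was 0.0680 for Ldhc and 0.0848 for Meiob, over 0.05, and it lay between 0.0101 and 0.105 for Ldhc and between 0.0452 and 0.154 for Meiob over all the settings that tested them. Ybx2 had 3 reads in Aire KO and 13 in WT for Aire, 4.04-fold lower, between 1.11 and 22.1. Sycp1, which joins paired chromosomes in the synaptonemal complex, had 0 reads in Aire KO and 8 in WT for Aire, at least 2.49-fold lower taking 3 reads over the group as the floor. Hormad1 had more reads in Aire KO (10, 16 and 9) than in WT for Aire (5, 8 and 3) and was not tested.

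The call for Piwil2 was lost without Aire KO B (edgeR adjusted p = 0.0516, with values from 0.00022 to 0.0516 over 11 alternatives), while that for Spo11 stood under these 11 (0.00042 to 0.0370). The log2 fold change of Piwil2 was -3.37 without Aire KO B and -7.19 without Aire KO C, which leaves 0 reads in Aire KO. In a first trial on reads across exon junctions, later left out, the call for Spo11 was lost and Piwil2 was under the filter. Both calls stood without Aire KO A and without WT for Aire B, the libraries low in Y-linked reads, with edgeR adjusted p of 0.00469 and 0.0124 for Spo11 and of 0.0325 and 0.0310 for Piwil2. Marker lists of other cells moved in this comparison too. Of 4 fibroblast markers Dcn was higher and Col1a1 and Col1a2 lower, with sums of 299 to 381 CPM in Aire KO and 139 to 182 CPM in WT for Aire. Of 3 endothelium markers Pecam1 was higher, with sums of 25.9 to 34.5 CPM in Aire KO and 9.49 to 12.5 CPM in WT for Aire. Of 3 B cell markers 0 were called in edgeR (2 at an unadjusted p under 0.05, 0 in DESeq2), with sums of 5.67 to 10.3 CPM in Aire KO and 12.1 to 17.5 CPM in WT for Aire. Of 7 mTEC markers 3 were higher and 2 lower, with sums of 45249 to 48320 CPM in Aire KO and 32874 to 39575 CPM in WT for Aire. None of these 17 markers had 0 reads in a group. Of 4 Sertoli cell markers Sox9 was higher and Gata4 lower, with Amh and Fshr at 0 reads in both groups and sums of 160 to 181 CPM in Aire KO and 143 to 148 CPM in WT for Aire. Of 4 myeloid markers 1 was higher and 1 lower, with Itgax at 0 reads in Aire KO. Their sums were 1047.5 to 1683.6 CPM in Aire KO and 924.5 to 1176.1 CPM in WT for Aire, which overlapped. Of 6 ciliated cell markers 4 were tested and 1 was lower. Their sums were 34.5 to 62.0 CPM in Aire KO and 44.9 to 81.55 CPM in WT for Aire, which overlapped. The part of these lists in the results for Spo11 and Piwil2 was not tested.

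**Figure D2:**
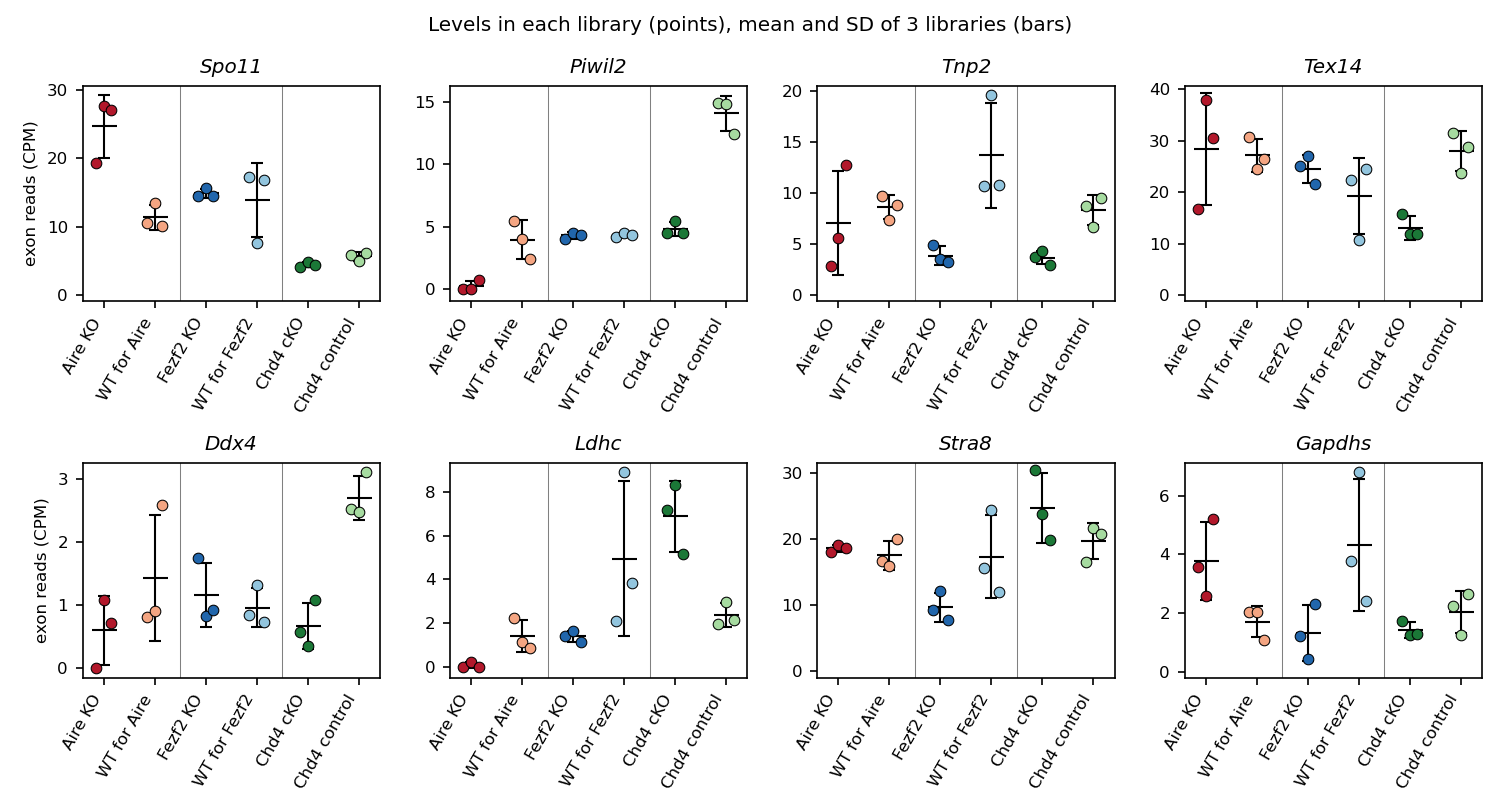
Exon reads in CPM (vertical, linear) of the 8 members that passed a test, in each library (points, in the order A, B, C) of the 6 groups, each knockout left of its control, with bars for mean and SD of 3 libraries. Piwil2 is at 0 or 0.709 CPM in Aire KO and between 12.4 and 14.9 CPM in Chd4 control, and Ldhc lies between 5.14 and 8.32 CPM in Chd4 cKO, above the 1.97 to 2.97 CPM of Chd4 control.

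In Fezf2 KO, Tnp2 was the 1 member that passed. Its gene (chromosome 16, 10787936 to 10788660) lies beside those of the protamines Prm1 and Prm2, within 17.9 kb. Tnp2 had 4.89, 3.5 and 3.21 CPM in Fezf2 KO and 10.7, 19.6 and 10.8 CPM in WT for Fezf2, means of 3.87 ± 0.90 and 13.7 ± 5.13 CPM (SD, n = 3 each). All 3 libraries of Fezf2 KO lay below all 3 of WT for Fezf2, and the log2 fold change was -1.81 (SE 0.40, edgeR, Benjamini-Hochberg adjusted p = 0.0314). Prm1, which packs sperm DNA, had 1.75, 2.88 and 2.29 CPM in Fezf2 KO and 2.93, 1.31 and 1.20 CPM in WT for Fezf2, with a log2 fold change of 0.32 and a 95% interval of -0.84 to 1.47. Prm2, which lies between Tnp2 and Prm1, was under the filter and not tested. It had 17 reads in Fezf2 KO and 20 in WT for Fezf2, means of 1.09 ± 0.577 and 1.58 ± 0.976 CPM (SD, n = 3 each). Of the 12 members past the filter 1 was lower and 0 were higher (0 also in DESeq2), where 2.4% of all 15695 genes tested were lower and 2.48% higher. Over all 12 the unadjusted p was under 0.05 for 0 higher and 3 lower members, and their median log2 fold change was 0.01, against -0.03 over all genes tested.

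The 2 other members with an unadjusted p under 0.05 were Stra8 and Gapdhs. Stra8 had 9.26, 12.1 and 7.80 CPM in Fezf2 KO and 15.7, 24.4 and 12 CPM in WT for Fezf2, so that Fezf2 KO B lay just above WT for Fezf2 C (log2 fold change -0.83, SE 0.34, edgeR adjusted p = 0.223). Gapdhs had 1.22, 0.411 and 2.29 CPM in Fezf2 KO and 3.77, 6.81 and 2.41 CPM in WT for Fezf2 (log2 fold change -1.72, SE 0.68, edgeR adjusted p = 0.202). Piwil2 was at 4.02, 4.53 and 4.36 CPM in Fezf2 KO and at 4.19, 4.45 and 4.33 CPM in WT for Fezf2, a log2 fold change of -0.01 with a 95% interval of -0.82 to 0.80. Spo11 had 14.5, 15.6 and 14.4 CPM in Fezf2 KO and 17.2, 7.60 and 16.9 CPM in WT for Fezf2, with an interval of -0.57 to 0.76. Tex14 had 25.0, 27.0 and 21.6 CPM in Fezf2 KO and 22.4, 10.7 and 24.6 CPM in WT for Fezf2, and Odf2 had 76.5, 60.5 and 59.6 CPM in Fezf2 KO and 77.1, 44.0 and 63.6 CPM in WT for Fezf2. In each of these 3 genes WT for Fezf2 B was the lowest of the 6 libraries.

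The 28 members under the filter held 0 to 23 reads over Fezf2 KO, with a median of 6.5, and 0 to 60 reads over WT for Fezf2, with a median of 4.0. Scaled to library size, 10 of them were higher in Fezf2 KO and 18 in WT for Fezf2, a tally with no test that was not made over all genes under the filter. Piwil1, the PIWI protein of pachytene spermatocytes and round spermatids, had 0, 1 and 0 reads in Fezf2 KO and 20, 3 and 6 reads in WT for Fezf2, 34-fold lower, between 5.64 and 1389 by counting error. It passed in edgeR only when the filter was left off (adjusted p = 0.0331). Ldhc had 8, 8 and 5 reads in Fezf2 KO and 10, 34 and 16 in WT for Fezf2, and Ddx4 10, 4 and 4 reads in Fezf2 KO and 4, 5 and 3 in WT for Fezf2. Boll, an RNA-binding protein that spermatids need, had 2 reads in Fezf2 KO and 15 in WT for Fezf2, 8.80-fold lower, between 2.05 and 79.3.

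WT for Fezf2 B was the highest of the 6 libraries of its table for 11 of the 35 members with at least 3 reads there, Tnp2, Stra8, Ldhc and Gapdhs among them. WT for Fezf2 A was the highest for 10 and WT for Fezf2 C for 4, and Fezf2 KO A, B and C for 4, 5 and 1. Without WT for Fezf2 B the log2 fold change of Tnp2 was -1.46 (edgeR adjusted p = 0.0270). The call for Tnp2 was lost when any 1 of the 3 Fezf2 KO libraries was left out (0.0936 without A, 0.155 without B and 0.138 without C), with edgeR adjusted p between 0.00384 and 0.155 over the 11 alternatives. It was also lost in the trial on junction reads. Markers of thymocytes were lower in Fezf2 KO too. Of 7 such genes 3 passed as lower (Cd8a, Lck and Dntt) and none had 0 reads, and their summed level ranged from 136 to 172 CPM in Fezf2 KO and from 263 to 483 CPM in WT for Fezf2. Of 4 cTEC markers Ctsl was higher, with sums of 1241 to 1587 CPM in Fezf2 KO and 374 to 864 CPM in WT for Fezf2. For 4 myeloid, 4 fibroblast and 3 B cell markers 0 passed in edgeR (1, 1 and 1 at an unadjusted p under 0.05, and 0, 1 and 0 in DESeq2). Myeloid sums were 561 to 815 CPM in Fezf2 KO and 918 to 1195 CPM in WT for Fezf2, fibroblast sums 172 to 236 CPM in Fezf2 KO and 109 to 142 CPM in WT for Fezf2, and B cell sums 20.6 to 21.6 CPM in Fezf2 KO and 25.6 to 29.6 CPM in WT for Fezf2. None of these markers had 0 reads in a group. Sums of 4 Sertoli cell markers were 150 to 166 CPM in Fezf2 KO, with Amh at 0 reads, and 125 to 141 CPM in WT for Fezf2, with Fshr at 0 reads, and 0 of the 2 tested passed in edgeR (2 at an unadjusted p under 0.05, 1 in DESeq2). Of 7 mTEC markers 1 was higher and 0 lower, with sums of 37893 to 42987 CPM in Fezf2 KO and 28276 to 40047 CPM in WT for Fezf2. Of 6 ciliated cell markers 1 was lower and 0 higher. Their sums were 58.5 to 97.5 CPM in Fezf2 KO and 83.0 to 103 CPM in WT for Fezf2. Both sums overlapped between the groups. The part of these lists in the result for Tnp2 was not tested.

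In Chd4 cKO, 4 members fell and 1 rose. The 4 were Piwil2, Tex14, Ddx4 and Tnp2, and the 1 that rose was Ldhc. Piwil2 had 4.46, 5.45 and 4.50 CPM in Chd4 cKO and 14.9, 14.8 and 12.4 CPM in Chd4 control, means of 4.8 ± 0.56 and 14.1 ± 1.41 CPM (SD, n = 3 each). The groups lay far apart, with a log2 fold change of -1.52 (SE 0.24, edgeR, Benjamini-Hochberg adjusted p = 0.00121). Tex14 (chromosome 11, 87405065 to 87555823) had 15.8, 11.8 and 11.8 CPM in Chd4 cKO and 31.5, 23.7 and 28.7 CPM in Chd4 control, also without overlap (log2 fold change -1.09, SE 0.19, edgeR adjusted p = 0.0020). Small RNA genes overlap the span of Tex14, and Gm22725 and Gm24890 overlap that of Piwil2. Overlap with counted exons was not checked, so whether reads of these genes were counted is not known. Both calls stood under all 11 alternatives, with adjusted p of at most 0.0169 for Piwil2 and at most 0.0152 for Tex14.

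Ddx4, the RNA helicase known as VASA that marks germ cells of both sexes, had 4, 6 and 5 reads in Chd4 cKO and 9, 10 and 13 reads in Chd4 control. Scaled to library size these were 0.575, 0.351 and 1.07 CPM in Chd4 cKO and 2.53, 2.47 and 3.11 CPM in Chd4 control, without overlap (log2 fold change -2.21, SE 0.54, edgeR, Benjamini-Hochberg adjusted p = 0.0120). Tnp2 had 3.74, 4.28 and 3 CPM in Chd4 cKO and 8.72, 6.68 and 9.57 CPM in Chd4 control, again without overlap (log2 fold change -1.15, SE 0.31, edgeR adjusted p = 0.0190). Ldhc (chromosome 7, 46861203 to 46878142) had 7.19, 8.32 and 5.14 CPM in Chd4 cKO and 1.97, 2.97 and 2.15 CPM in Chd4 control. All 3 libraries of Chd4 cKO lay above those of Chd4 control, with means of 6.88 ± 1.61 and 2.36 ± 0.53 CPM (SD, n = 3 each) and a log2 fold change of 1.55 (SE 0.36, edgeR adjusted p = 0.00901).

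Among the 13 members past the filter, 4 were lower and 1 higher, where 14.3% of all 15182 genes tested were lower and 14.3% higher. The median log2 fold change of the 13 was -0.76, against 0.00 over all genes tested. Of the 8 that did not pass, Odf2 had 112, 87.3 and 97.6 CPM in Chd4 cKO and 95.1, 74.5 and 69.2 CPM in Chd4 control (log2 fold change 0.32, SE 0.14, edgeR adjusted p = 0.113). Acrv1 had 0.575, 1.35 and 2.36 CPM in Chd4 cKO and 5.35, 3.96 and 1.67 CPM in Chd4 control, which overlapped (log2 fold change -1.40, SE 0.57, edgeR adjusted p = 0.0915). Stra8 had 30.5, 23.9 and 19.9 CPM in Chd4 cKO and 16.6, 21.8 and 20.8 CPM in Chd4 control, with a 95% interval of -0.05 to 0.71, and Spo11 4.17, 4.8 and 4.5 CPM in Chd4 cKO and 5.91, 4.95 and 6.22 CPM in Chd4 control, with an interval of -0.93 to 0.26. Sycp2, Dmc1, Zpbp and Tdrd1 did not pass either, with log2 fold changes between -0.79 and 0.53.

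The 27 members under the filter held 1 to 49 reads over Chd4 cKO, with a median of 12, and 0 to 24 over Chd4 control, with a median of 9.0. The libraries differ in depth, and scaled to library size 7 of these members were higher in Chd4 cKO and 20 in Chd4 control. This tally was not tested and was not made over all genes under the filter. Mael, which is needed for transposon silencing in spermatocytes, had 0, 0 and 1 reads in Chd4 cKO and 8, 5 and 1 in Chd4 control, 34.1-fold lower, between 5.19 and 1443 by counting error. It passed without the filter in edgeR (adjusted p = 0.0291) and in DESeq2 (0.0215). Gapdhs had 1.73, 1.23 and 1.28 CPM in Chd4 cKO and 2.25, 1.24 and 2.63 CPM in Chd4 control, which overlapped. Dazl, a translational regulator of germ cells, had 0, 18 and 1 reads in Chd4 cKO and 7, 13 and 3 in Chd4 control. Spata16 had 2, 22 and 2 reads in Chd4 cKO and 1, 1 and 0 in Chd4 control, so most of its reads came from the deepest library.

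Leaving out Chd4 cKO B ended the calls for Ldhc (edgeR adjusted p = 0.0504) and Ddx4 (0.0788), and leaving out Chd4 control A, the library of this comparison with Y-linked reads, ended that for Tnp2 (0.0519) but not the other 4. The call for Ddx4 was also lost without Chd4 control C (0.0503), and that for Tnp2 without Chd4 cKO A (0.0503), Chd4 cKO C (0.0563) or Chd4 control C (0.0626). In 1 fit of all 18 libraries the calls for Ldhc, Ddx4 and Tnp2 were lost as well (edgeR adjusted p = 0.0537, 0.0587 and 0.0802). Adjusted p in edgeR or DESeq2 over the alternatives ranged from 0.00587 to 0.0537 for Ldhc, from 0.0120 to 0.0788 for Ddx4 and from 0.0188 to 0.0802 for Tnp2. Of 39 members with at least 3 reads in this comparison, Chd4 control A was the highest of the 6 libraries for 12. Chd4 control B and C were the highest for 9 and 8, and Chd4 cKO A, B and C for 5, 4 and 1. Ciliated cells share axoneme genes with sperm, and of 6 ciliated cell markers 3 fell (Mcidas, Ccno and Dnah5), 1 rose (Dnah9) and none had 0 reads. Their summed level ranged from 117 to 149 CPM in Chd4 cKO and from 134 to 171 CPM in Chd4 control, which overlapped, and the median log2 fold change of the 6 was -1.24. Of 4 Sertoli cell markers Sox9 was higher and Gata4 lower, with sums of 175 to 201 CPM in Chd4 cKO and 142 to 158 CPM in Chd4 control and Amh at 0 reads in both. Of 4 Leydig cell markers Hsd17b3 was lower, with sums of 16.9 to 22.6 CPM in Chd4 cKO and 27.5 to 43.9 CPM in Chd4 control and Insl3 at 0 reads in both. Of 4 myeloid markers Lyz2 was lower and Cd68 higher, with sums of 535 to 702 CPM in Chd4 cKO and 986 to 1192 CPM in Chd4 control. Of 4 cTEC markers Ctsl and Ly75 were higher, with sums of 694 to 1274 CPM in Chd4 cKO and 517 to 600 CPM in Chd4 control. Of 7 mTEC markers 1 was higher and 2 lower, with sums of 33408 to 37240 CPM in Chd4 cKO and 38604 to 43432 CPM in Chd4 control. Of 3 endothelium markers 1 was tested and 0 passed in edgeR (0 at an unadjusted p under 0.05, 0 in DESeq2), with sums of 6.00 to 6.62 CPM in Chd4 cKO and 6.93 to 10.1 CPM in Chd4 control. Of 4 fibroblast markers 3 were tested and 1 was lower. Their sums were 185 to 192 CPM in Chd4 cKO and 156 to 200 CPM in Chd4 control, which overlapped. The part of these lists in the results for the members was not tested.

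**Figure D3:**
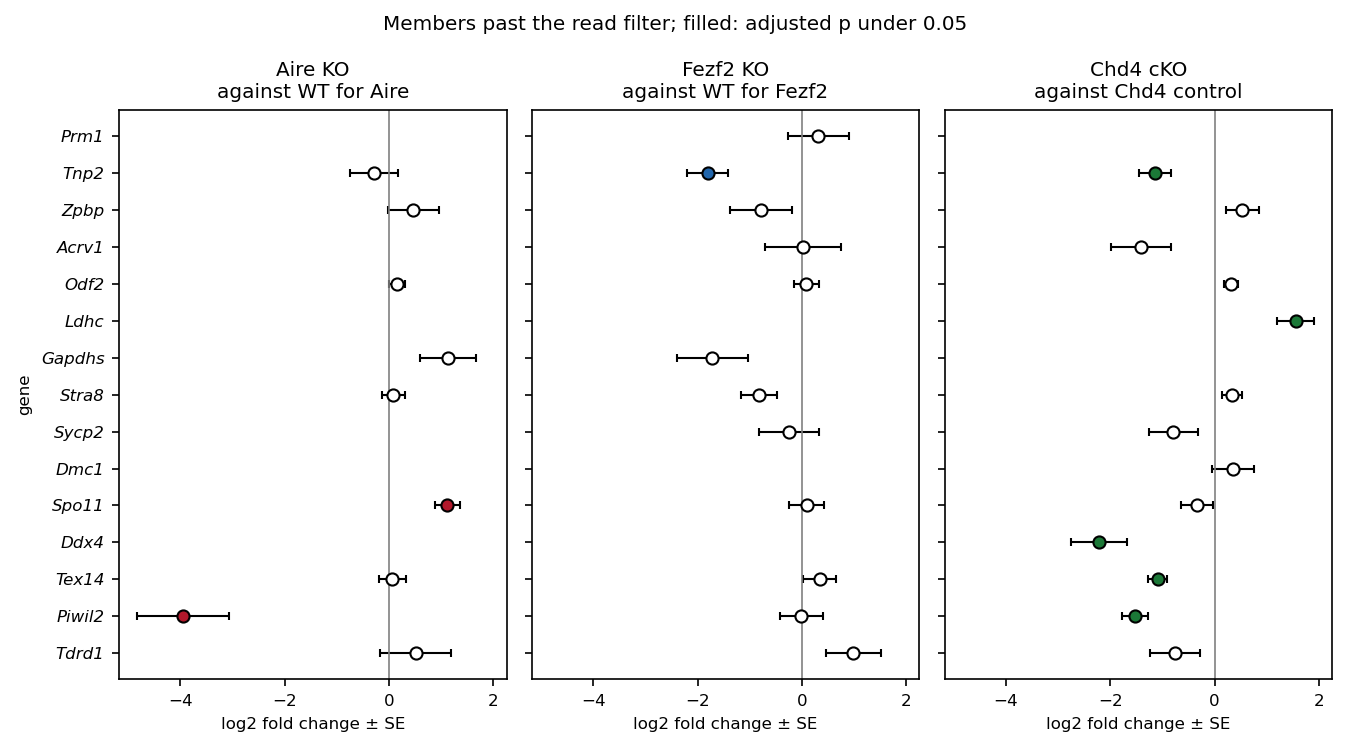
Log2 fold change with SE (horizontal) of the 15 members that passed the filter in at least 1 comparison (rows), each knockout over its own control in a panel of its own, with 3 libraries a group. Filled points have an adjusted p under 0.05, and a gene with no point was not tested in that comparison.

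The effects of the knockouts on a member were then compared directly, as interaction contrasts in a fit of all 18 libraries to the 21875 genes shared by the tables. Each effect is a knockout against its own control, so each was measured within 1 sequencing run, and contrasts that name the same knockout share its libraries. The effect on Ldhc was lower in Aire KO than in Chd4 cKO by -5.43 on the log2 scale (SE 1.13, edgeR, Benjamini-Hochberg adjusted p = 0.00207), from the 1 read of Aire KO against 20 in WT for Aire and the higher level in Chd4 cKO. It was also lower in Fezf2 KO than in Chd4 cKO, by -3.37 (SE 0.79, edgeR adjusted p = 0.00633). The effect on Piwil2 was higher in Fezf2 KO than in Aire KO by 3.95 (SE 0.82, edgeR adjusted p = 0.00193). These 3 differences stood under all 15 alternatives, but their sizes varied with the library left out. For Ldhc in Aire KO against Chd4 cKO the difference lay between -7.62, without Aire KO B, and -4.94, without WT for Aire A. For Ldhc in Fezf2 KO against Chd4 cKO it lay between -3.75, without WT for Fezf2 A, and -2.63, without WT for Fezf2 B. For Piwil2 it lay between 3.38, without Aire KO B, and 7.51, without Aire KO C.

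For 5 other differences a single library decided the call. The effect on Spo11 was higher in Aire KO than in Chd4 cKO by 1.43 (SE 0.41, edgeR adjusted p = 0.0194), and 0.0501 without Chd4 control C. The effect on Piwil2 was lower in Aire KO than in Chd4 cKO by -2.47 (SE 0.82, edgeR adjusted p = 0.0430), a call lost in 11 of 15 alternatives with values between 0.0023 and 0.140. Tex14 was higher in Fezf2 KO relative to its control than in Chd4 cKO by 1.40 (SE 0.40, edgeR adjusted p = 0.0224, between 0.00679 and 0.0617 over the alternatives), and lost the call without Fezf2 KO B, Chd4 cKO B, Chd4 cKO C or Chd4 control A. For Stra8 the same contrast gave -1.20 (SE 0.36, edgeR adjusted p = 0.0292, between 0.0105 and 0.0831), lost without Fezf2 KO A or C, WT for Fezf2 B, Chd4 cKO A or B, or Chd4 control A. For Gapdhs the effect in Fezf2 KO was lower than that in Aire KO by -2.88 (SE 0.83, edgeR adjusted p = 0.0206, between 0.00771 and 0.0637), lost without Aire KO C, WT for Aire C, Fezf2 KO B or WT for Fezf2 B. In all, 18 members were tested for differences, of which 3 passed for Aire KO against Chd4 cKO, 3 for Fezf2 KO against Chd4 cKO and 2 for Fezf2 KO against Aire KO. The shares of all 16169 genes tested that passed were 16.5%, 14.9% and 16.9% in these contrasts. The pairs of effects that did not pass are not shown to be alike: the difference of the Aire KO and Chd4 cKO effects on Tnp2 had a 95% interval of -0.30 to 1.99, and that of the Fezf2 KO and Chd4 cKO effects on Tnp2 an interval of -1.86 to 0.46.

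No member was without reads in all 18 libraries, and 13 had a read in every library. Another 11 had reads in at most 9 libraries, among them Catsper1 in 4. Crisp2, Odf1, Catsper1 and Tssk2 had 0 reads in all 6 libraries of the Aire table. Taking 3 reads over a group as the floor, this allows up to 0.229 CPM in Aire KO and 0.214 CPM in WT for Aire. In all, 12 members had 0 reads in Aire KO and 6 in WT for Aire, 3 in Fezf2 KO and 2 in WT for Fezf2, 0 in Chd4 cKO and 1 in Chd4 control. The floor was 0.201 CPM in Fezf2 KO, 0.235 CPM in WT for Fezf2, 0.105 CPM in Chd4 cKO and 0.255 CPM in Chd4 control, so a gene at 0 may lie just under these levels.

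Members with at least 1 read numbered 17, 25 and 25 in Aire KO and 30, 23 and 28 in WT for Aire, 32, 32 and 27 in Fezf2 KO and 28, 32 and 33 in WT for Fezf2, and 33, 38 and 30 in Chd4 cKO and 33, 33 and 36 in Chd4 control. Computed for 3571570 reads in every library, the expected numbers were 16.6, 23.4 and 23.7 in Aire KO and 29.2, 23.0 and 27.3 in WT for Aire, which overlapped. They were 29.8, 30.4 and 26.3 in Fezf2 KO and 27.4, 31.2 and 32.3 in WT for Fezf2, which overlapped too. In Chd4 cKO they were 29.8, 31.4 and 28.1, and in Chd4 control 33.0, 32.6 and 34.8, which did not overlap. With at least 3 reads in place of 1, the numbers were 15, 16 and 15 members in Aire KO and 25, 23 and 24 in WT for Aire, without overlap. Over all genes, 18771 to 19260 had at least 1 read in Aire KO and 20997 to 21890 in WT for Aire, also without overlap. The number over all genes was not computed with at least 3 reads. Whether the lower numbers of members in Aire KO with at least 3 reads are particular to the members was therefore not tested. With at least 3 reads, members numbered 23, 23 and 21 in Fezf2 KO and 25, 23 and 24 in WT for Fezf2, which met at 23. In Chd4 cKO they numbered 26, 33 and 20, and in Chd4 control 25, 30 and 27, which overlapped. At their own depths, 18042 to 19361 genes had a read in Chd4 cKO and 18427 to 18672 in Chd4 control, which overlapped. So did the 21247 to 22114 genes of Fezf2 KO and the 21087 to 21716 of WT for Fezf2. At 3571570 reads, the expected numbers with at least 3 reads overlapped in none of the 3 comparisons. They were 14.2, 14.9 and 13.1 in Aire KO and 22.7, 20.7 and 20.6 in WT for Aire. For Fezf2 KO they were 21.2, 19.5 and 18.8, and for WT for Fezf2 24.7, 21.4 and 23.1. In Chd4 cKO they were 19.9, 22.2 and 18.8, and in Chd4 control 25.0, 27.6 and 25.2. The number over all genes was not computed for 3571570 reads. Whether the lower numbers in the knockouts at that depth are particular to the members was therefore not tested. These counts were not tested, since 3 libraries against 3 cannot reach an exact permutation p under 0.10.

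**Figure D4:**
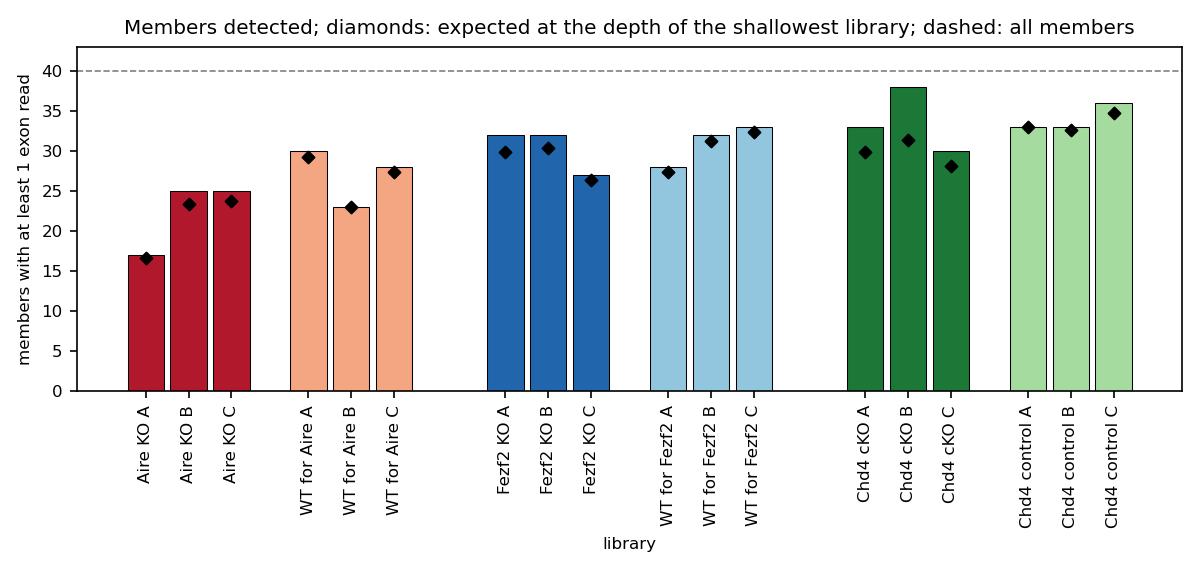
Number of the 40 members with at least 1 exon read (bars, from 0) in each library, each knockout left of its control, with diamonds for the number expected at 3571570 reads and a dashed line at 40. Aire KO A has the fewest, 17, and Chd4 cKO B, the deepest library, the most, 38.

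Further genes of the same pathways were read from lists that do not hold the members. Over all genes tested, 5.73% were higher and 9.37% lower in Aire KO, and 2.48% higher and 2.4% lower in Fezf2 KO. No list was tested against these shares. Of 52 other spermatid and sperm genes, 14 were tested in Aire KO with 0 higher and 1 lower (1 in either direction at an unadjusted p under 0.05, 1 in DESeq2), 18 in Fezf2 KO with 1 higher and 1 lower, and 20 in Chd4 cKO with 1 higher and 8 lower, where 14.3% of all genes tested were higher and 14.3% lower. In that comparison 3 of 6 ciliated cell markers fell too, and their part in this count was not tested. Fabp9, a fatty acid-binding protein of spermatids, was lower in all 3, at 52.9 ± 4.88 CPM in Aire KO and 118 ± 45.1 CPM in WT for Aire, 13.0 ± 4.75 CPM in Fezf2 KO and 172 ± 92.1 CPM in WT for Fezf2, and 59.2 ± 9.72 CPM in Chd4 cKO and 97.9 ± 27.1 CPM in Chd4 control (SD, n = 3 each). Its adjusted p in edgeR was 0.00253, 0.00156 and 0.0168. Dkkl1, an acrosomal protein, rose to 56.0 ± 3.99 CPM in Fezf2 KO, against 7.84 ± 4.48 CPM in WT for Fezf2 (edgeR adjusted p = 0.00216). In Chd4 cKO the largest changes among those called were for Lrrc34 (log2 fold change -2.31), Spata18 (-2.15), a mitochondrial quality control protein, Meig1 (-2.13), which spermatids need to build the tail, Tekt1 (-1.61), a tektin of axonemes, and Lyzl4 (1.84), a lysozyme-like sperm protein.

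Of 36 other meiotic genes, 15 were tested in Aire KO and 2 were lower, the MutS homologues Msh5 (log2 fold change -2.23) and Msh4 (-1.86), which act together at meiotic crossovers. Of all genes tested there, 9.37% were lower. In Fezf2 KO 0 of 19 passed in edgeR (3 at an unadjusted p under 0.05, 0 in DESeq2). In Chd4 cKO, where 14.3% of all genes tested were higher, 1 of 19 was higher. It was Rec8, the cohesin subunit of meiotic chromosomes, at 17.4 ± 7.31 CPM in Chd4 cKO and 2.51 ± 0.99 CPM in Chd4 control (SD, n = 3 each, edgeR adjusted p = 0.000699). Of 18 other genes of the piRNA pathway and germ granules, 2 of 10 tested were lower in Aire KO (Gtsf1, -2.42, and Tdrd7, -0.56), 0 of 11 passed in edgeR in Fezf2 KO (2 unadjusted, 0 in DESeq2), and in Chd4 cKO 2 of 10 were higher and 2 lower. The shares of all genes tested were 9.37% lower in Aire KO, and 14.3% higher and 14.3% lower in Chd4 cKO. Gpat2, an outer mitochondrial membrane protein needed for piRNA production, had 68.3 ± 11.6 CPM in Chd4 cKO and 9.79 ± 4.70 CPM in Chd4 control (edgeR adjusted p = 6.06e-05), and the PIWI protein Piwil4 rose by 0.54 on the log2 scale. Gtsf1 and Tdrd9, a helicase of this pathway, fell by 1.82 and 1.68 on the log2 scale in Chd4 cKO.

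Of 12 transcription factors of spermatogenesis, Tcfl5, which acts in spermatocytes, rose to 34.9 ± 4.58 CPM in Chd4 cKO, against 2.87 ± 0.30 CPM in Chd4 control (SD, n = 3 each, edgeR adjusted p = 5.16e-06), and Tbpl1, a TBP-related factor, rose by 0.59 on the log2 scale. These were 2 higher and 0 lower of 9 tested, where 14.3% of all genes tested were higher and 14.3% lower. In Aire KO 1 of 6 tested was higher (Zbtb16, log2 fold change 1.23) and 1 lower, Sohlh1 of spermatogonia, with 0 reads in Aire KO and 54 in WT for Aire, at least 16.8-fold lower. Of all genes tested in Aire KO, 5.73% were higher and 9.37% lower. In Fezf2 KO 0 of 6 passed in edgeR (2 unadjusted, 1 in DESeq2). All 21 genes of a list of repressors of germ line genes were tested in each comparison. In Aire KO 0 passed in edgeR (3 unadjusted, 0 in DESeq2). In Fezf2 KO 1 was lower (Max, the partner of MGA at E-boxes, log2 fold change -1.26), and in Chd4 cKO 3 were higher, Mga (0.69), Uhrf1 (0.48), which keeps DNA methylation, and Trim28 (0.38). Of all genes tested, 2.4% were lower in Fezf2 KO and 14.3% were higher in Chd4 cKO, so 3 of 21 is about the share of all genes.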

How the data were processed

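The deposited values are counts of exon reads per gene, which the authors gave in 1 table per knockout with 3 libraries a group, and the exon length of each gene. The column names give single, trimmed Ion Torrent reads, with the Aire and Fezf2 libraries in 1 run and the Chd4 libraries in another. DESeq2, mm10 and GRCm38 are named in the submitters' processing notes, with no version of the counting tool. Since the headers carry no replicate number, letters A to C follow the order of barcodes within a group and pair nothing. Another 216 per-library columns were not used.

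The 40 members were named for this work, and members and gene lists were chosen with earlier results of these data known. Members were found by symbol in all 3 tables. Each knockout was tested against its own control with edgeR 4.0.16 (R 4.3.3) on all genes that passed filterByExpr, with TMM scaling, the quasi-likelihood F test and Benjamini-Hochberg adjustment over all genes tested, and calls were made at an adjusted p under 0.05. SEs are the log2 fold change divided by the square root of F, and 95% intervals are 1.96 SE. Differences between effects were contrasts in 1 fit of all 18 libraries. DESeq2 1.42.0 was an alternative, beside RLE size factors, no filter, CPM above 1 in at least 3 libraries, 1 fit of all 18 libraries and leaving out each library. RPKM were computed from the TMM CPM and the exon length in the table. Counting intervals are exact conditional 95% intervals, and they and the floor of 3 reads cover counting error only. The edgeR script was tested on simulated counts. Every member is named. Members called in a comparison or in a contrast of effects and the 5 highest by mean RPKM in controls have the value of each library, those at 0 in a table have a floor, and the rest have ranges, with single values where few reads bear on a comparison, chosen after the values were seen. From other lists, up to 4 called genes per list, comparison and direction with the largest change could be named.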

Additional observations from a re-analysis of the deposited data

Results flagged for a closer look

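For 8 pairs of effects on a member, the test of the difference itself passed (edgeR interaction contrast, Benjamini-Hochberg adjusted p under 0.05), and each is given here as the effect in the knockout named first minus that in the other. Ldhc differed between Aire KO and Chd4 cKO by -5.43 and between Fezf2 KO and Chd4 cKO by -3.37 on the log2 scale. Its reads numbered 1 in Aire KO and 20 in WT for Aire, 21 in Fezf2 KO and 60 in WT for Fezf2, and 216 in Chd4 cKO and 28 in Chd4 control. Piwil2 differed between Fezf2 KO and Aire KO by 3.95 and between Aire KO and Chd4 cKO by -2.47. Spo11 differed between Aire KO and Chd4 cKO by 1.43. Tex14 and Stra8 differed between Fezf2 KO and Chd4 cKO, by 1.40 for Tex14 and by -1.20 for Stra8, and Gapdhs between Fezf2 KO and Aire KO by -2.88. The Chd4 libraries come from another run and another strain background than the rest, and neither can be told apart from the knockout in a contrast with Chd4. Groups of 3 libraries are too small for a test of single outlying samples.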

How the results depend on the processing

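No call of a member or of a difference between effects changed its direction under any alternative run. In a fit of all 18 libraries the members called lower numbered 3 in Aire KO (Ldhc and Meiob beside Piwil2) and 3 in Fezf2 KO (Ldhc and Stra8 beside Tnp2). In Chd4 cKO that fit called 2 lower, Piwil2 and Tex14, and 0 higher, and lost Ldhc, Ddx4 and Tnp2. With no filter 2 were lower in Fezf2 KO, Piwil1 being the other. Leaving out 1 library at a time, members called lower ranged from 0 to 2 in Aire KO, from 0 to 1 in Fezf2 KO and from 2 to 4 in Chd4 cKO, and members called higher in Chd4 cKO from 0 to 2. Differences called ranged from 1 to 3 for Aire KO against Chd4 cKO, from 1 to 3 for Fezf2 KO against Chd4 cKO and from 1 to 4 for Fezf2 KO against Aire KO. The cause was not tested. With at least 3 reads in place of 1, members detected averaged 15.3 in Aire KO (22.3 with 1 read), 22.3 in Fezf2 KO (30.3), 24.0 in WT for Fezf2 (31.0), 26.3 in Chd4 cKO (33.7) and 27.3 in Chd4 control (34 with 1 read). No paired analysis was possible because the count columns carry no replicate number. A first trial used reads across exon junctions, whose columns were then left out so that 1 kind of count was used per library. The columns of total exon reads that were kept carry no replicate number either. The trial lost the calls for Spo11 in Aire KO and Tnp2 in Fezf2 KO. It left Piwil2 in Aire KO and Ddx4 in Chd4 cKO under the filter, and its values are not given here. Depth limits the 25 members that passed no filter in a comparison with a control: with few reads, only large changes could have passed.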

Other observations

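Of 19 oocyte and zona genes listed, 9 were tested in Aire KO, with 2 higher and 4 lower in edgeR, where 5.73% of all genes tested were higher and 9.37% lower. Zp3 and Zp1, which code for zona pellucida proteins, had 0 reads in Aire KO, against 116 and 68 in WT for Aire, at least 36.1-fold and 21.1-fold lower. Nobox, an oocyte transcription factor, had 0 reads in Aire KO and 45 in WT for Aire, at least 14-fold lower. Zp2, of the same zona, had 236 ± 11.6 CPM in Aire KO and 101 ± 10.3 CPM in WT for Aire, and Zar1, a maternal gene of oocytes, 22.1 ± 2.43 and 9.50 ± 1.44 CPM in these groups (SD, n = 3 each).

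In Fezf2 KO 2 of 11 tested were lower, H1foo, the oocyte linker histone, at 2.87 ± 0.74 CPM in Fezf2 KO and 20.3 ± 1.98 CPM in WT for Fezf2, and Ooep. Of all genes tested in Fezf2 KO, 2.4% were lower. In Chd4 cKO 5 of 12 were lower, with Dppa3 at 3.59 ± 1.56 CPM in Chd4 cKO and 16.6 ± 5.67 CPM in Chd4 control, and 1 was higher, Zp2, at 137 ± 29.4 CPM in Chd4 cKO and 77.6 ± 2.14 CPM in Chd4 control (SD, n = 3 each). Of all genes tested in Chd4 cKO, 14.3% were lower and 14.3% higher. Of 26 genes of X-linked cancer testis families, 1 was tested in Aire KO, 1 in Fezf2 KO and 3 in Chd4 cKO, and 0 passed in edgeR (0, 0 and 2 at an unadjusted p under 0.05, 0 in DESeq2 in each).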
